A study of Homo sapiens with 6 samples.

Results

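The alpha and beta tubulin isotypes were examined in OE19 cells in which miR-451a had been inhibited. They were the 10 genes TUBA1A, TUBA1B, TUBA1C, TUBA3D, TUBA4A, TUBB, TUBB2A, TUBB3, TUBB4B and TUBB6, taken by symbol from the 13345 genes of the messenger RNA table. All 10 had a row, 5 for alpha tubulins and 5 for beta tubulins. The set was proposed with values of this table in view, TUBA3D because it was low in the inhibitor samples, so the differences between inhibitor and control are given for these genes as a description with their error and without a test.

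OE19 is a cell line from an oesophageal adenocarcinoma. Messenger RNA was measured in 6 samples from 3 independent transfection experiments, each with a control and an inhibitor sample of that number (n = 3 per group). Whether same-numbered samples shared more than the number is not stated, so differences within an experiment are given as a description. Control cells received Negative Control A, a locked nucleic acid oligonucleotide of the miRCURY LNA Power series, and inhibitor cells received the LNA Power inhibitor of miR-451a, so every sample came from transfected cells of a single line. The protocols describe irradiation at 2 Gy, but irradiation of the sequenced cells is neither stated nor denied in the sources.

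Alpha and beta tubulin form the heterodimers from which microtubules are built, and these in turn make up the mitotic spindle and the tracks of intracellular transport. Humans carry several genes for each, called isotypes, whose proteins are alike over most of their length and differ most in the tail at the C-terminus, which protrudes from the microtubule surface and is modified by enzymes. Cells also limit their own tubulin supply: when free dimers accumulate, TTC5 binds the start of the nascent tubulin chain on the ribosome and the messenger RNA is degraded. Epithelial cells rely on a few widely expressed isotypes, whereas TUBB3 is best known from neurons and TUBA3D from testis.

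The coding ends of TUBA3D, TUBA4A and the 5 beta isotypes are shown because the tail is what separates one isotype from another. The sequences were taken from the GENCODE transcripts lifted to GRCh37 and are the last 60 coding bases, stop codon included. TUBA3E, the near copy of TUBA3D, is added for comparison. Among these alpha isotypes, capitals mark bases that differ from TUBA3D in an alignment.
TUBA3D: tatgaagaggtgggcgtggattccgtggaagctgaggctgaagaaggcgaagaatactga
TUBA3E: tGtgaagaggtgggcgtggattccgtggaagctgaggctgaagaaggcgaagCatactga
TUBA4A: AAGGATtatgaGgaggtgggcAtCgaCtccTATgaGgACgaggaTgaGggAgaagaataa

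The end of TUBA3E was 96.7% identical to that of TUBA3D, and that of TUBA4A 62.1%. The last codon before the stop codon does not encode tyrosine in TUBA4A, unlike in TUBA3D. Over the whole coding region, identity between alpha isotypes ran from 83.8% to 97.2% in 10 pairs.

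Among the beta isotypes, capitals mark bases that differ from TUBB.
TUBB: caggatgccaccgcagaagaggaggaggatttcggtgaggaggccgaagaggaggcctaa
TUBB4B: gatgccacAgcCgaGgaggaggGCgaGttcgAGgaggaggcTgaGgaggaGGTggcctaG
TUBB2A: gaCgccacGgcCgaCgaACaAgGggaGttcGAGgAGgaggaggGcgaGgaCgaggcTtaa
TUBB6: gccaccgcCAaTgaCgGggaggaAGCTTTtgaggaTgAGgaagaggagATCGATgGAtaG
TUBB3: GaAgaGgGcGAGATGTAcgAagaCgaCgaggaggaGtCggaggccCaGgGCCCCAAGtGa

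The end of TUBB4B was the closest to TUBB, at 73.0% identity, and that of TUBB3 the farthest, at 48.5%. Over the whole coding region, identity between beta isotypes ran from 80.9% to 87.7% in 10 pairs. The other end of the coding region, where the TTC5-bound part of the chain is encoded, is shown as well. The first 12 coding bases were atgcgtgaatgc in TUBA4A and atgcgcgagtgt in TUBA3D. They were atgagggaaatc in TUBB and TUBB4B, atgagggagatc in TUBB3 and TUBB6, and atgcgcgagatc in TUBB2A.

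Close copies limit how far reads can be assigned to a single isotype. The coding region of TUBA3D was 98.8% identical to that of TUBA3E, with 16 differing positions of 1353, and 96.6% identical to that of TUBA3C. Of the stretches of 150 bases in the TUBA3D transcript, 52 of 1371 also occurred in a transcript of TUBA3E. That gene was not among the other tubulin genes measured here. The shared part was 48.7% for TUBB2A, with TUBB2B among others, and 19.2% for TUBA1B, with TUBA1A and TUBA1C. It reached 92.3% for TUBB3, because a read-through gene covers the TUBB3 transcript. TUBA4A, TUBB4B and TUBB6 shared no such stretch. How reads with several matches were counted is not given in the sources used here. Values of TUBB2A, TUBB3 and the TUBA1 genes are therefore uncertain to the extent of the shared part. The same holds for TUBA3D and TUBB, where the shared part was smaller, at 3.79% and 2.66%.

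Values are a normalised signal per gene. The authors had adjusted the counts of each sample for GC content and gene length and then scaled the samples. Levels of different genes are compared here on that adjusted scale only. In each sample the signal is a whole multiple of a fixed step, and the multiple is called the adjusted count. The adjusted counts summed to between 14084387 and 18726440 per sample. Signals take set values shared by blocks of 15 ranked genes, so a signal depends on rank. Fold ranges, ratios and shares between genes are therefore not ratios of transcript numbers. Near the top of the table neighbouring values lie far apart. There the second value was 2.51 to 3.11 times the sixth, whereas at position 100 the step to the next value was about 1.01-fold. Inhibitor sample 3 stood apart from the rest of the series, in which 1373 of 11095 genes lay over 2-fold away from the median across the remaining samples, against 62 to 214 genes in each other sample. All 10 epithelial markers examined were measured, as against 3 of 10 mesenchymal, 4 of 10 neuronal and 0 of 10 male germ line markers. The neuronal sum was 135 to 157 in control samples and 102 to 244 in inhibitor samples, and its highest value was in inhibitor sample 3. That peak rested largely on MAP2, 1 of the 4 neuronal markers measured and also a microtubule-binding gene. MAP2 was at 159 in that sample and at 34.4 to 71.4 in the others.

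The isotypes spanned a 5648-fold range of mean control signal. In control cells the order of falling mean was TUBA1C, TUBA1B, TUBB4B, TUBB, TUBA4A, TUBB2A, TUBA1A, TUBB6, TUBA3D and TUBB3. TUBA1C and TUBA1B overlapped in their control samples, and no other pair of neighbours in this order did. In inhibitor cells the order of the means was the same, but there TUBB2A overlapped TUBA1A, TUBA1A overlapped TUBB6, and TUBA3D overlapped TUBB3. The plot of signal by isotype shows this order and the separation of TUBA3D between the groups.

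**Figure D1:**
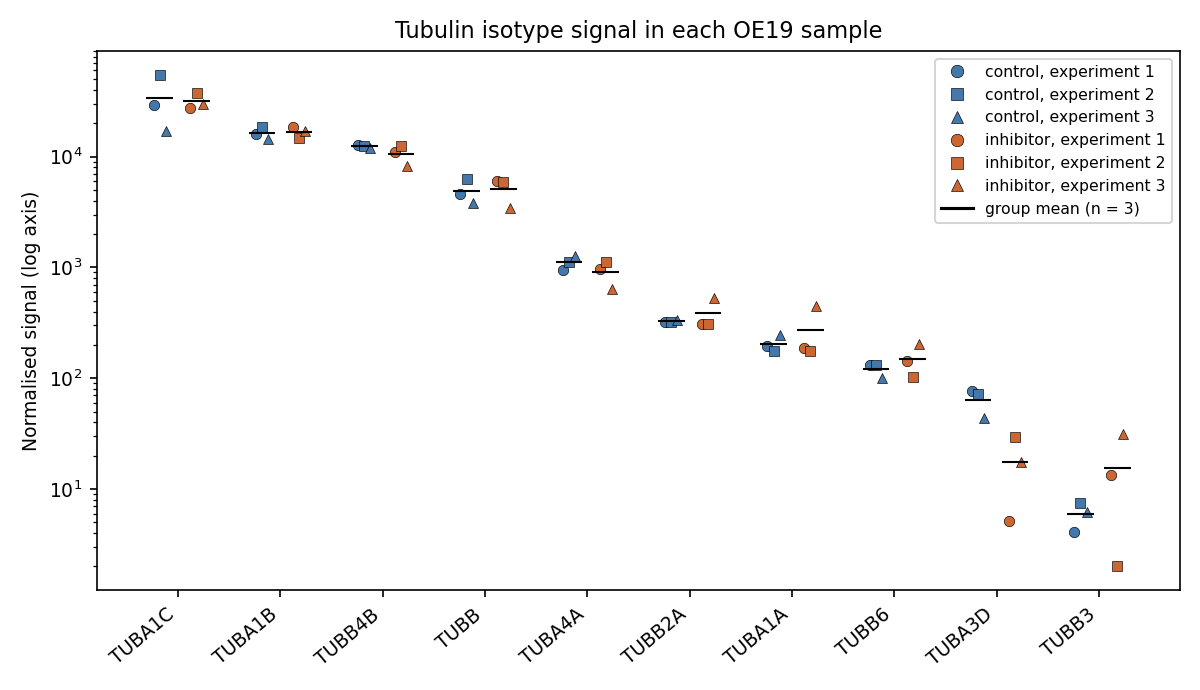
Normalised signal (log axis) of the 10 isotypes in each sample, ordered by control mean, with controls in blue, inhibitor samples in orange, a symbol per experiment and a bar at each group mean (n = 3). TUBA3D was the isotype whose control samples (43.4 to 77.1) and inhibitor samples (5.16 to 29.3) did not overlap.

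TUBA3D (ENSG00000075886.10, chr2:131476119-131482934 in GRCh38 by RefSeq, the source of all positions given) was the isotype with the largest difference. Its signal was 77.1, 71.6 and 43.4 in control samples 1, 2 and 3 and 5.16, 29.3 and 17.6 in inhibitor samples 1, 2 and 3. All 3 inhibitor samples lay below the lowest control, and inhibitor sample 1 was the lowest of the 6. The means were 64.0 ± 18.1 and 17.4 ± 12.1 (SD, n = 3), a ratio of 3.68. On the log2(signal + 1) scale, which understates changes of low signals, the difference was -2.06 ± 0.60 (moderated SE from limma, as for all log2 differences). Within experiments 1, 2 and 3 it was -3.66, -1.26 and -1.25, so that experiment 1 carried the largest part, and without inhibitor sample 3 it was -2.21.

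The adjusted counts behind these values were 94, 67 and 42 in control samples and 5, 29 and 17 in inhibitor samples. Counted in blocks of 15 genes from the top, TUBA3D stood at positions 697, 706 and 749 in controls and 858, 770 and 817 with the inhibitor. Of the 12723 tested genes, 8 had a log2 difference at or below that of TUBA3D, itself included. The groups did not overlap, with the inhibitor lower, in 2.9% of all tested genes (369 of 12723) and in 1 of the 10 isotypes, TUBA3D. As TUBA3D was chosen for its fall in these samples, neither its place nor its lack of overlap is evidence for that fall. In bulk RNA, fewer cells that express a gene and less of its RNA per cell cannot be told apart. TUBA3D made up 0.0966% to 0.166% of the summed alpha signal in controls and 0.0109% to 0.0548% with the inhibitor.

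The main alpha isotypes showed no comparable difference. TUBA1B (ENSG00000123416.15, chr12:49127782-49131395), a ubiquitous isotype, had signals of 15830, 18595 and 14502 in control samples and 18438, 14847 and 17183 in inhibitor samples. The groups overlapped throughout, and experiment 2 ran opposite to the other experiments. The means were 16309 ± 2088 and 16823 ± 1822 (SD, n = 3), with a log2 difference of 0.05 ± 0.21 (SE). The signal of TUBA1B was 205, 260 and 334 times that of TUBA3D in control samples 1, 2 and 3 and 3572, 506 and 974 times in inhibitor samples 1, 2 and 3. The ratio of inhibitor sample 1 rests on 5 adjusted counts of TUBA3D.

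TUBA1C (ENSG00000167553.14, chr12:49227926-49274600) had the highest mean signal of the isotypes. Its signal was 29280, 54157 and 16990 in control samples and 27549, 37359 and 29941 in inhibitor samples. Control sample 2 was the highest and control sample 3 the lowest of the 6, with the inhibitor samples between them. The log2 difference was 0.06 ± 0.43 (SE). These signals came from positions 4, 2 and 6 in controls and 4, 3 and 4 with the inhibitor, so a shift of a few positions at the top of the table covered the 3.19-fold range of TUBA1C.

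The main beta isotypes were TUBB4B and TUBB. TUBB4B (ENSG00000188229.5, chr9:137241287-137243707), a widely expressed isotype also found in cilia, had signals of 12843, 12380 and 12038 in controls and 10967, 12332 and 8163 in inhibitor samples. Inhibitor samples 1 and 3 were below all controls, and inhibitor sample 2 lay among them. The log2 difference was -0.26 ± 0.20 (SE), and -0.09 without inhibitor sample 3. Within experiments 1, 2 and 3 it was -0.23, -0.01 and -0.56. TUBB4B and TUBA3D, the latter chosen for its fall, were the 2 isotypes lower with the inhibitor in all 3 experiments. The share of all tested genes lower in all 3 was 12.2%, and no isotype was higher in all 3.

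TUBB (ENSG00000196230.12, chr6:30720352-30725422), the common isotype of dividing cells, had signals of 4614, 6232 and 3786 in controls and 5996, 5881 and 3433 in inhibitor samples. The lowest value in each group came from experiment 3, and the groups overlapped. The log2 difference was 0.05 ± 0.28 (SE), and 0.31 without inhibitor sample 3.

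**Figure D2:**
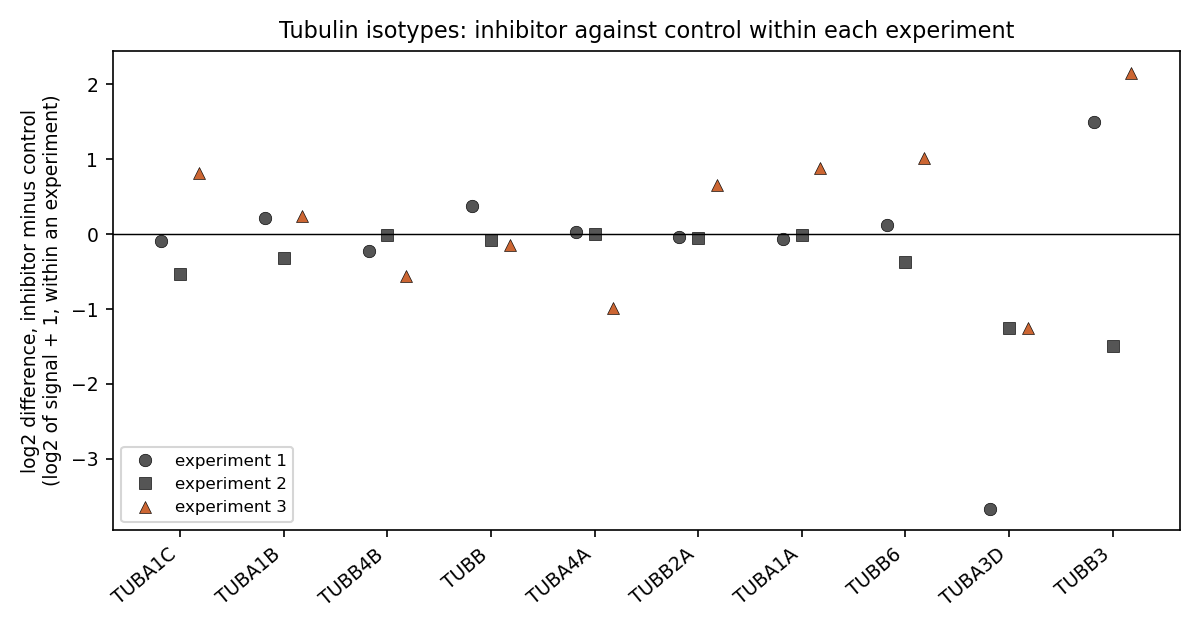
Log2 difference of inhibitor minus control within each experiment (log2 of signal + 1), for the 10 isotypes ordered by control mean, with experiment 3 in orange. TUBA3D lay at -3.66, -1.26 and -1.25, while TUBA1A, TUBB2A and TUBA4A lay close to 0 in experiments 1 and 2 and at 0.88, 0.66 and -0.99 in experiment 3.

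Among the less abundant isotypes, TUBA1A, TUBB2A and TUBA4A differed mainly in inhibitor sample 3. TUBA1A (ENSG00000167552.13, chr12:49184795-49189080), the alpha isotype prominent in developing neurons, had signals of 195, 177 and 244 in controls and 187, 176 and 450 in inhibitor samples. The third inhibitor sample was the highest, the first lay within the control range and the second just below it. The log2 difference was 0.27 ± 0.36 (SE), and it was -0.17 without that sample.

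TUBB2A (ENSG00000137267.5, chr6:3153666-3157544), a beta isotype abundant in brain, followed the same course, with 319, 319 and 338 in controls and 310, 309 and 534 in inhibitor samples. The first 2 inhibitor samples were slightly below the controls and the third above them. The log2 difference was 0.19 ± 0.23 (SE), and -0.07 without inhibitor sample 3. TUBB6 (ENSG00000176014.12, chr18:12307669-12329826), a beta isotype with a divergent tail, had signals of 131, 132 and 100.3 in controls and 142, 102 and 204 in inhibitor samples. The groups overlapped, and the difference of 0.26 ± 0.28 (SE) on the log2 scale was 0.00 without inhibitor sample 3.

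TUBA4A (ENSG00000127824.13, chr2:219249710-219254740) moved the other way, with 946, 1119 and 1264 in controls and 966, 1118 and 636 in inhibitor samples. Inhibitor samples 1 and 2 were within the control range and the third was below it. The log2 difference was -0.32 ± 0.23 (SE), and -0.08 without inhibitor sample 3.

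TUBB3 (ENSG00000258947.6, chr16:89921925-89936097) was near the lower limit of the data, with 4.10, 7.48 and 6.20 in controls and 13.4, 2.02 and 31.1 in inhibitor samples. The inhibitor samples lay on both sides of the controls. The adjusted counts were 5, 7 and 6 against 13, 2 and 30, and the log2 difference was 0.72 ± 0.89 (SE), or -0.04 without inhibitor sample 3. With a control mean of 5.93, TUBB3 passed the minimum mean signal of 10 through its inhibitor samples.

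Inhibitor sample 3 was the highest of the 6 samples for 4 isotypes (TUBA1A, TUBB2A, TUBB3 and TUBB6), the lowest for 3 (TUBA4A, TUBB and TUBB4B) and between the others for 3. Over all tested genes it was the highest in 34.7% and the lowest in 35.7%, so the isotypes did so about as often as genes at large. Against the median of the other 5 samples, TUBA1A was 1.26 and TUBB3 2.16 higher on the log2 scale, TUBB2A 0.74 and TUBB6 0.64 higher, while TUBA4A was at -0.81, TUBB at -0.78 and TUBB4B at -0.60. For all tested genes the 5th and 95th percentiles of this difference were -1.21 and 1.34. What set inhibitor sample 3 apart was not tested.

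**Figure D3:**
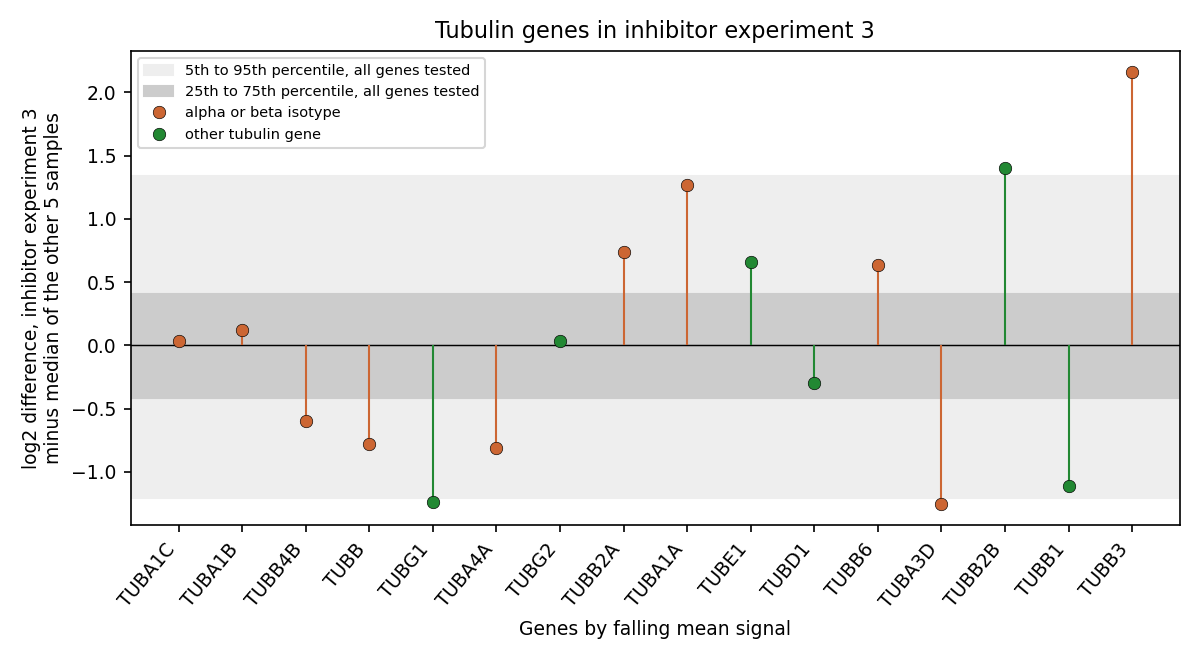
Log2 difference between inhibitor sample 3 and the median of the other 5 samples for the 10 isotypes (orange) and 6 other tubulin genes (green), ordered by falling mean signal, with shaded bands for the percentiles of all tested genes. TUBB3 at 2.16 and TUBB2B at 1.40 stood above the 95th percentile of 1.34, and TUBG1 at -1.24 below the 5th percentile of -1.21. TUBA3D, chosen for its fall in the inhibitor samples, was also below it, at -1.25. Its signal was lower still in inhibitor sample 1 (5.16 against 17.6).

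The median log2 difference of the 10 isotypes was 0.06, against -0.00 for all 12723 tested genes, and without inhibitor sample 3 it was -0.06. It was below 0 in 3 of the 10 isotypes and in 50.6% of all tested genes.

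The summed signal was dominated by 2 genes on each side. TUBA1C gave 51.4% to 73.1% and TUBA1B 25.1% to 43.9% of the summed alpha signal, and together they gave 95.3% to 98.2% in every sample. TUBA4A gave 1.32% to 3.83%. On the beta side, TUBB4B gave 62.9% to 74.0% and TUBB 23.3% to 34.4%. Together these gave 97.3% to 97.8% in 5 samples and 93.8% in inhibitor sample 3. In that sample the share of TUBB2A was 4.32%, against 1.66% to 2.08% in the others, and the share of TUBB6 was 1.65%, against 0.549% to 0.817%. TUBB3 was at 0.252% there and at 0.0109% to 0.0770% elsewhere.

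**Figure D4:**
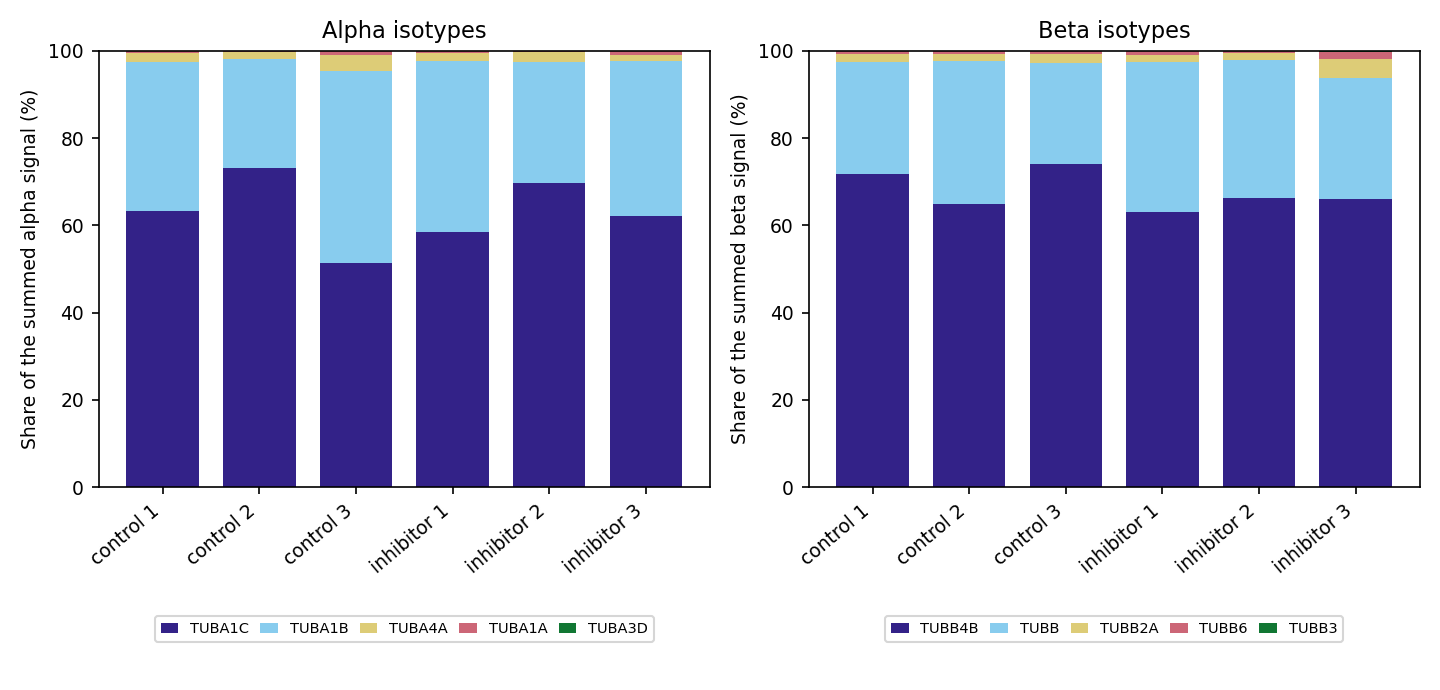
Share (%) of each isotype in the summed alpha signal (left) and the summed beta signal (right) in each of the 6 samples. TUBA1C with TUBA1B and TUBB4B with TUBB filled at least 93.8% of every bar, and the part left to TUBB2A and TUBB6 was widest in inhibitor sample 3.

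The summed alpha signal was 46328, 74120 and 33044 in control samples and 47145, 53530 and 48228 in inhibitor samples. The spread among controls followed TUBA1C, and the inhibitor samples fell inside it. The summed beta signal was 17911, 19072 and 16269 in controls and 17429, 18626 and 12366 in inhibitor samples, lowest in inhibitor sample 3. The ratio of alpha to beta ran from 2.03 to 3.90 over all 6 samples, on a scale where high signals depend on rank.

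The design compares messenger RNA levels with and without miR-451a inhibition. Across the table, 0 of 12723 genes (0.0%) passed an adjusted p of 0.05 with limma and Benjamini-Hochberg adjustment, and the lowest adjusted p in the table was 0.899. Before adjustment, 119 genes (0.935%) had a p below 0.05, of which 68 (0.534%) were lower and 51 (0.401%) higher with the inhibitor. The count tests edgeR and DESeq2 also gave 0 genes after adjustment, with 163 and 250 before it.

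Genes that make, fold, modify or organise tubulin were described beside the isotypes. Of the 134 listed, 116 were measured and 113 tested, of which 60 had a log2 difference above 0 and 53 below 0, with a median of 0.02. With limma, 0 passed the adjusted threshold, and 2 had an unadjusted p below 0.05, both higher with the inhibitor. The groups did not overlap in 4 genes lower and 5 higher with the inhibitor, against 2.9% and 2.71% of all tested genes. Inhibitor sample 3 was the highest for 44 and the lowest for 46 of the 113.

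Of 13 other tubulin genes, 6 were measured, and all overlapped between the groups. TUBB1, the beta isotype of platelets, had signals of 36.1, 29.9 and 23.8 in controls and 25.8, 22.3 and 11.4 in inhibitor samples, with a log2 difference of -0.63 ± 0.41 (SE; limma adjusted p = 0.899). TUBB2B, the near copy of TUBB2A, had 16.4, 34.2 and 30.0 in controls and 17.6, 41.5 and 81.0 in inhibitor samples, a log2 difference of 0.59 ± 0.58 (SE), or 0.07 without inhibitor sample 3. TUBB2A and TUBB2B were both highest in inhibitor sample 3, and reads that the 2 genes share cannot be told apart.

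TUBG1, the gamma tubulin of the nucleating ring complex, had 1425, 1865 and 1628 in controls and 1498, 1808 and 689 in inhibitor samples. The log2 difference of -0.40 ± 0.34 (SE) for TUBG1 became 0.01 without inhibitor sample 3. TUBG2, TUBD1 and TUBE1, the second gamma, the delta and the epsilon tubulin, differed by -0.08 ± 0.16, -0.05 ± 0.18 and 0.12 ± 0.24 (log2, SE). In the nucleation list, which holds the ring complex and its recruiters, 10 of 20 tested genes were above 0 and 10 below. Its extremes were TUBGCP4, a ring complex subunit, at -0.76 ± 0.44, and MZT2B, a small partner of the complex, at 0.24 ± 0.14 (log2, SE). TUBGCP4 was at 147 in inhibitor sample 3 and at 377 to 613 in the other samples.

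Folding of new tubulin uses prefoldin, the chaperonin CCT and the cofactors TBCA to TBCE, which assemble alpha with beta. In this list, 15 of 22 tested genes were above 0 and 7 below, with a median log2 difference of 0.05, or 0.15 without inhibitor sample 3. TBCA, which holds beta tubulin, had signals of 381, 389 and 376 in controls and 561, 463 and 456 in inhibitor samples, which did not overlap. Its log2 difference was 0.36 ± 0.14 (SE; limma unadjusted p = 0.0313, adjusted p = 0.899). PFDN1, a prefoldin subunit, had 585, 567 and 567 in controls and 756, 616 and 857 in inhibitor samples, with a log2 difference of 0.36 ± 0.15 (SE; limma unadjusted p = 0.0444, adjusted p = 0.899). Neither gene passed the adjusted threshold. TBCB, TBCC, TBCD and TBCE were at 0.32 ± 0.18, 0.12 ± 0.14, 0.06 ± 0.17 and -0.12 ± 0.16 (log2, SE), and the groups overlapped in each.

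The autoregulation list held 4 genes, 2 above and 2 below 0. TTC5, which recognises nascent tubulin, had 131, 123 and 112 in controls and 126, 126 and 137 in inhibitor samples, a log2 difference of 0.09 ± 0.17 (SE). SCAPER, which links TTC5 to deadenylation, had 60.7, 76.9 and 62.0 in controls and 54.7, 75.9 and 145 in inhibitor samples. Its log2 difference of 0.35 ± 0.37 (SE) was -0.04 without inhibitor sample 3. CNOT11, a subunit of the deadenylase complex, was at -0.05 ± 0.15 (log2, SE).

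Among the enzymes that modify tubulin, 9 of 18 tested genes were above 0 and 9 below. TTL, which restores the final tyrosine of alpha tubulin, was at -0.15 ± 0.26, the acetyltransferase gene ATAT1 at -0.24 ± 0.17 and the deacetylase gene HDAC6 at 0.34 ± 0.23 (log2, SE). HDAC6 had 513 in inhibitor sample 3 and 267 to 308 in the others. VASH1, a detyrosinating enzyme, had a mean below the minimum of 10 and was not tested. The extremes were the glutamylase family genes TTLL2, at -1.22 ± 0.53, and TTLL6, at 0.48 ± 0.59 (log2, SE). TTLL2 had 17.2, 19.2 and 30.0 in controls and 13.4, 11.1 and 4.15 in inhibitor samples, which did not overlap (limma adjusted p = 0.899). TTLL6 had 8.21, 9.61 and 9.30 in controls and 7.23, 10.1 and 29.1 in inhibitor samples. With a control mean of 9.04, TTLL6 passed the minimum mean signal of 10 through inhibitor sample 3, without which its log2 difference was -0.07.

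Of the genes that bind and organise the microtubule lattice, 15 of 30 tested were above 0 and 15 below. MAP4, a stabilising protein, was at 0.24 ± 0.15, MAPRE1, which tracks growing ends, at -0.00 ± 0.14 and the polymerase gene CKAP5 at 0.35 ± 0.30 (log2, SE). CKAP5 was at 4492 in inhibitor sample 3 and between 1877 and 2480 in the others. The extremes were CAMSAP2, a minus-end protein, at -0.58 ± 0.33 and TACC2, a partner of CKAP5, at 0.47 ± 0.33. Without inhibitor sample 3, CAMSAP2 was at -0.18 and TACC2 at 0.05. Among genes of disassembly and severing, 7 of 13 were above 0 and 6 below. STMN1, which sequesters tubulin dimers, was at 0.58 ± 0.28, with 2013, 2102 and 1779 in controls and 3090, 1877 and 4303 in inhibitor samples. The extremes of that list were FIGN, a severing enzyme, at -0.39 ± 0.44 and the kinesin gene KIF18A at 0.74 ± 0.38 (log2, SE). The groups overlapped in STMN1, FIGN and KIF18A, which without inhibitor sample 3 were at 0.30, -0.49 and 0.30.

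**Figure D5:**
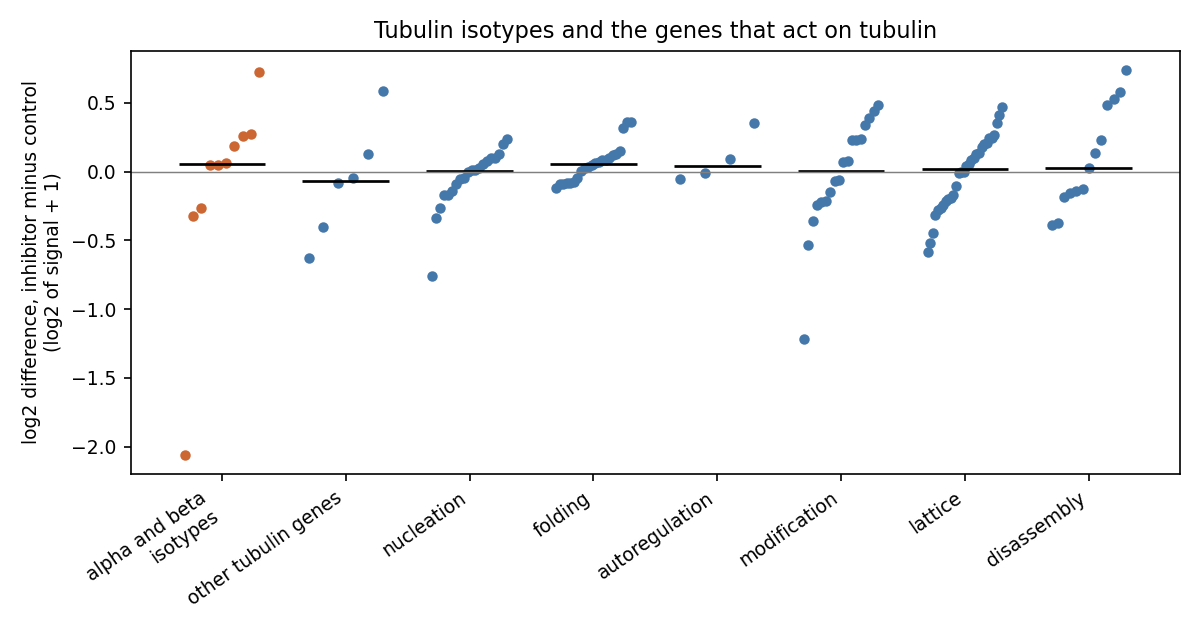
Log2 difference of inhibitor minus control for each tested isotype (orange) and each tested gene of the 7 lists (blue), with a bar at the median of each list. The medians lay between -0.07 and 0.06, and TUBA3D, chosen for its fall, lay at -2.06, below every other point.

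The tested genes whose signal followed TUBA3D most closely over the 6 samples were FBXW11, a ubiquitin ligase subunit (Pearson's r = 0.99 on the log2 scale), KMT2B, a histone methyltransferase (r = 0.99), and ZNF281, a zinc finger protein (r = 0.98). Of all tested genes, 16 had an r of at least 0.95. The coefficient ignores the size of change: FBXW11 ran from 424 to 540, and KMT2B from 2036 to 2206, whereas TUBA3D ran from 5.16 to 77.1. For TUBA1B the closest genes were CDKN2AIPNL (r = 0.98), TSR3 (r = 0.98) and TGFBR1 (r = 0.97), and 7 genes reached 0.95. These are descriptions over 6 samples, picked from 12723 genes, and carry no p-value.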

How the data were processed

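The 6 messenger RNA samples were grouped and numbered from their titles. The sources give TruSeq Stranded mRNA libraries, cutadapt 1.8, FastQC 0.11.8, STAR 2.7.0f and GRCh38. The authors adjusted counts within samples with EDASeq and scaled them with DESeq2, and deposited a normalised signal per gene. The counting tool was not given in the sources used here, nor was the annotation. All values were whole multiples of a step within 1e-06, so the depth is that of adjusted counts and not of reads.

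Genes with a mean signal of at least 10 (12723 of 13345) were tested as log2(signal + 1) with limma 3.58.1 (eBayes with trend, two-sided) in R 4.3.3, with Benjamini-Hochberg adjustment over all of them. The study's methods name a Mann-Whitney test, whose exact two-sided p cannot go below 0.1 with 3 against 3 samples. The study did report messenger RNAs as differentially expressed, and its methods do not state how the p of that test was computed. The limma p-values set the difference between the groups against the spread of samples within them, moderated over all genes. Members and lists were chosen with earlier results of these data known. The genes named were all isotypes, the other measured tubulin genes, set members of each list with its lowest and highest tested gene, and the 3 genes most like TUBA3D and TUBA1B by Pearson's r. TBCA and PFDN1 were also named, the latter after its values were seen.

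Coordinates are of GRCh38 from RefSeq. Transcript sequences were from GENCODE v44 lifted to GRCh37, used without coordinates. Some coding ends and 1 marker list are not reported here.

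Samples carry an experiment number in the column headers, which was not used in the main test. Alternatives were a replicate block, TMM rescaling, pseudocounts of 10 and 0.1, no minimum, a minimum of 50, rank positions, each sample left out, and edgeR 4.0.16 and DESeq2 1.42.0 on the adjusted counts. The limma test was also run on simulated data built from the inhibitor and control samples (12723 genes). It recovered 61 of 100 genes at a 2-fold change and 99 of 100 at a 4-fold change, with 5 false calls. Only genes whose mean signal reached 50 were given a change, so both counts hold for that level alone. Recovery for genes of lower signal, such as TUBA3D (mean 40.7), was not given. Recovery with a sample that stands apart from the rest was not given either.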

Additional observations from a re-analysis of the deposited data

How the results depend on the processing

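With the replicate block, 0 genes passed the adjusted threshold, 128 had an unadjusted p below 0.05, and TUBA3D stayed at -2.06 on the log2 scale. The block changed no call. Deviations from the group means correlated at 0.21, 0.15 and -0.00 across genes between same-numbered samples of experiments 1, 2 and 3, but at 0.23 between control sample 3 and inhibitor sample 2 and 0.14 between control sample 1 and inhibitor sample 3, so not every sample correlated best with its own number. Under every other alternative that was run, 0 genes passed, and the counts at an unadjusted p below 0.05 ran from 43 without control sample 3 to 1360 without inhibitor sample 2, with 63 without control sample 2, 180 without inhibitor sample 3, 76 with a minimum of 50, 163 with edgeR and 250 with DESeq2. The log2 difference of TUBA3D ran from -2.56 without inhibitor sample 2 to -1.41 without inhibitor sample 1, and was -1.51 with a pseudocount of 10, -1.87 with edgeR and -1.88 with DESeq2. It has no value at a minimum of 50, which it does not reach. The median of the isotypes ran from -0.0752 without control sample 3 to 0.173 without control sample 2.

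Leaving out a sample turned the sign of several differences, most of them smaller than their error, with TUBG1 and CKAP5 as exceptions. The log2 ranges were -0.17 to 0.51 for TUBA1A, -0.03 to 0.15 for TUBA1B, -0.34 to 0.49 for TUBA1C, -0.12 to 0.31 for TUBB, -0.07 to 0.32 for TUBB2A and -0.04 to 1.67 for TUBB3. They were -0.68 to 0.0144 for TUBG1, -0.19 to 0.0184 for TUBG2, -0.14 to 0.0492 for TUBD1, -0.10 to 0.33 for TUBE1, -0.0765 to 0.23 for TBCD, -0.22 to 0.0456 for TBCE, -0.35 to 0.14 for TTL, -0.0372 to 0.66 for SCAPER, -0.15 to 0.0842 for CNOT11, -0.0673 to 0.87 for TTLL6, -0.0680 to 0.0819 for MAPRE1 and -0.00611 to 0.57 for CKAP5. Other alternatives also turned signs: TUBA1C was at -0.08 with edgeR and with DESeq2, TUBA1B at -0.11 and TUBB at -0.02 with rank positions, and MAPRE1 at 0.0027 with DESeq2. The causes were not tested. Low adjusted counts limit TUBA3D and TUBB3, and the wide spacing of top values limits TUBA1C. Low signals also limit TTLL2, TTLL6 and FIGN, with means of 15.9, 12.3 and 11.5.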

Other observations

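A row named for a beta tubulin pseudogene, TUBB8P12, which belongs to no list and was chosen after its values were seen, had a signal of 12.3, 27.8 and 8.27 in control samples and 22.7, 5.06 and 18.7 in inhibitor samples. The groups overlapped and its highest and lowest values came from experiment 2.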
